A study of Mus musculus with 22 samples.

Results

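The cytosolic ribosomal protein genes were taken by symbol: Rpl or Rps followed by a number and any of a short set of suffixes, together with Rpsa, Rplp0, Rplp1 and Rplp2. The rule found 85 genes among the 19721 genes listed in at least 1 library, and 84 of the 85 were listed in all 22 libraries. By role, 31 encode proteins of the small subunit, 43 proteins of the large subunit and 3 the stalk, and 8 are paralogs or copies named after a core member. Rps4l, a paralog that the symbol rule would also take, was not listed and counts as 0. Rpl32l, listed at between 0 and 3.67 estimated counts, did not pass the filter on low counts, so 84 members were tested.

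The ribosome is built from ribosomal RNA and a fixed set of proteins, so the protein genes are usually expressed together and in step with growth. Their mRNAs begin with a run of pyrimidines, the TOP motif, through which mTOR signalling sets how well they are translated. Embryonic stem cells divide fast, and some paralogs that are otherwise best known from the germ line or from muscle can be expressed in them.

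RNA-seq was made of the mouse embryonic stem (ES) cell line J1, untreated, and of embryoid bodies grown from it, which are cell aggregates that differentiate into mixed cell types. Embryoid bodies at days 4, 9, 12, 18 and 28 received 0.1% DMSO (2 libraries per day), 10 nM TBBPA (1 library per day) or 100 nM TBBPA (1 library per day). The labels give no DMSO content for the TBBPA libraries, so whether they also received DMSO is not known here. TBBPA is tetrabromobisphenol A, a brominated flame retardant, and the series addresses its effects on development. The 2 ES libraries are untreated cells without DMSO, so the first control step joins differentiation and the change from no DMSO to DMSO, which cannot be told apart. All groups come from 1 cell line, and the labels do not say whether replicates were separate cultures, so p-values measure the spread between these libraries, which may be technical.

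Totals ran from 18158583 to 18998141 estimated counts per library. Levels are given as CPM, estimated counts scaled to a common library total, after TMM scaling (edgeR's correction for the mix of genes) with factors from 0.878 in ES to 1.10 at day 28. The 8 pluripotency markers summed to 8434 and 8545 CPM in ES and to 577 in both day 28 DMSO libraries, while the 8 fibroblast markers went from 12.6 and 18.6 to 14486 and 15069 CPM. The 2 ES libraries stood further apart on the members than any DMSO pair did: the mean chi-square per member between the pair was 212, against 9.45 to 83.6 for the 5 DMSO pairs. This was not particular to the members: over all genes the mean was 21.2 for ES, against 1.61 to 3.25 for the DMSO pairs. In bulk RNA, fewer cells of a type and less RNA per cell cannot be told apart.

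RefSeq promoter windows on GRCm38.p6 were given for 65 of the 85 members, as 77 windows of 300 bases from 250 before the start to 50 after it. The letters CTTTC on the gene's strand within 10 bases of the start, a short pyrimidine stretch, stood in 14.3% of the members' windows and in 2.58% of all 32851 windows. The letters CCGGAAG, searched on both strands over the whole window, stood in 35.1% of the members' windows and in 8.86% of all. TATAAA, on the gene's strand in the 50 bases before the start, stood in 1.3% and 2.63%. The windows below run from 40 bases before the start to 25 bases from it, with capitals for CTTTC and for CCGGAAG or its reverse complement anywhere in the stretch. They show members with these letters, Rpl38 (chr11:114668540-114668604, plus strand), Rps27 (chr3:90213624-90213688, minus) and Rpl31 (chr1:39367811-39367875, plus), and the 2 paralogs that fell most beside their core partners.
Rpl38: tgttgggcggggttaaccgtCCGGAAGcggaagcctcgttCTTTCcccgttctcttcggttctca
Rps27: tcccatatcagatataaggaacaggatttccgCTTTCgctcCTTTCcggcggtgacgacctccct
Rpl31: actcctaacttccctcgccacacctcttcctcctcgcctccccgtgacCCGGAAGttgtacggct
Rpl39l: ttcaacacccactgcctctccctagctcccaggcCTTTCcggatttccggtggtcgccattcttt
Rpl39: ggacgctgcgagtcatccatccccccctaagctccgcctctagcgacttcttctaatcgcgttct
Rpl10l: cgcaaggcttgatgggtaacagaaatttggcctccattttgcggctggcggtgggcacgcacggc
Rpl10: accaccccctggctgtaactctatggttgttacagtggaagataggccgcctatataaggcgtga
Rpl39l (chr16:10170188-10170252, plus) and Rpl39 (chrX:37085198-37085262, minus), and Rpl10l (chr12:66284377-66284441, minus) and Rpl10 (chrX:74270776-74270840, plus), do not share a promoter stretch. Both core partners lie on the X chromosome and both paralogs on autosomes. A match is a description of letters, and the absence of one says only that they are not in the stretch searched.

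By FPKM, which divides by transcript length, Rpl41 had the highest median over the 22 libraries at 3168 FPKM. Rpl41 encodes the shortest ribosomal protein. Rpl23a (2741 FPKM), Rps2 (2422), Rps23 (2288) and Rpl32 (2277) followed. At the other end stood Rpl32l (0.12 FPKM), Rpl3l (0.395), Rpl10l (4.635) and Rpl39l (5.47), all paralogs, and Rps6 (12.95). Rps6 encodes the small subunit protein phosphorylated by S6 kinase.

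The low level of Rps6 goes with a second locus. LOC105244208, taken as a copy from its description, held 997 to 2378 CPM, and Rps6 itself 11.2 to 24.6 CPM. Rps6 thus had between 0.807% and 1.62% of the counts of the pair. Copies were taken by symbol or description, and no sequences were compared. In all, 21 members had at least 1 copy listed under another symbol, and for 8 of them a copy averaged over 500 counts per library. Rpl34 held a median of 12.2% of the counts of its family, Rpl29 20.9%, Rpl23 32.9%, Rpl21 66.5%, Rpl31 68.4%, Rpl30 75.5% and Rpl37 92.8%. The estimated counts were assigned to these loci before deposit, and how any reads shared by a member and its copies were treated is not known. The levels of these 8 members are therefore uncertain, and results were also computed with the copies' counts added. For 48 of the 85 members every estimated count was a whole number.

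**Figure D1:**
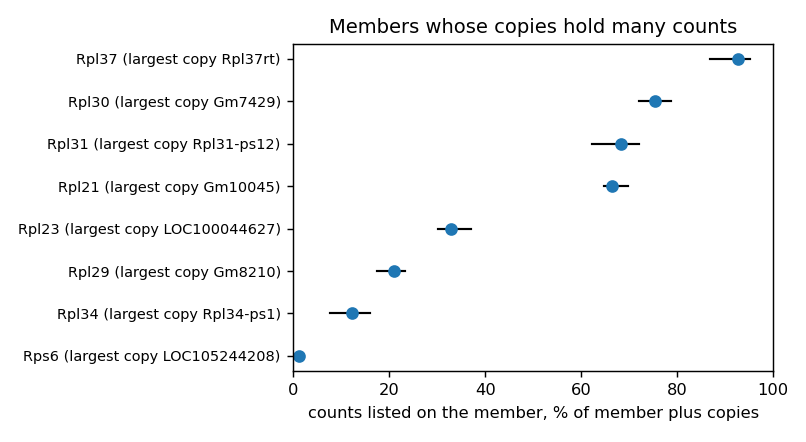
Counts listed on a member as a percentage of the member plus its copies, for the 8 members with a copy averaging over 500 counts per library. Copies were taken by symbol or description. The point is the median and the line the range over 22 libraries. Rps6 lies at the left edge with a median of 1.16%, and Rpl37 at the right with 92.8%.

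The members held 8.16% and 9.23% of all counts in the 2 ES libraries. The share was 9.99% and 9.48% in the day 4 DMSO libraries, 7.20% and 7.18% at day 9, 7.07% and 6.95% at day 12, 6.47% and 6.2% at day 18 and 5.74% and 5.78% at day 28. From day 9 on, each DMSO pair lay below the pair before it with no overlap, while the ES pair lay below the day 4 pair by less than the ES libraries differed from each other. As means, the share was 9.74% ± 0.364 (SD, n = 2) at day 4 and 5.76% ± 0.0325 (SD, n = 2) at day 28. In FPKM, which weights short transcripts up, the share was 25.4% ± 0.723 (SD, n = 2) at day 4 and 17.7% ± 0.143 (SD, n = 2) at day 28.

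**Figure D2:**
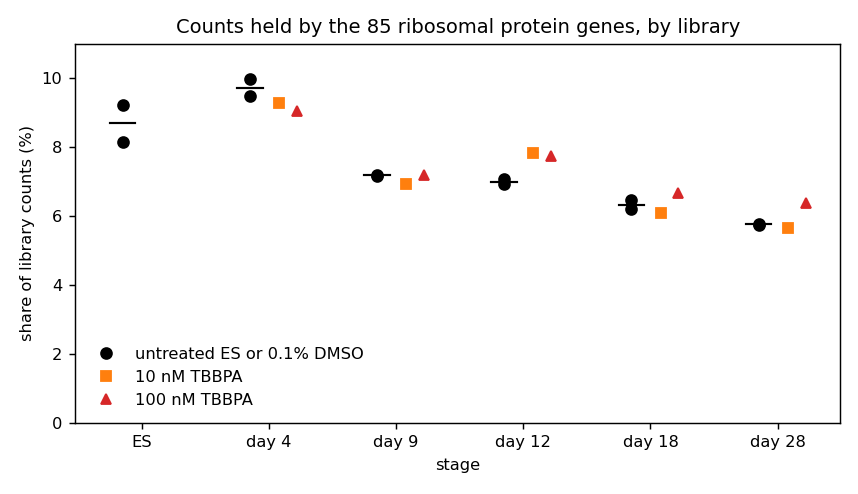
Share of each library's counts held by the 85 members, in percent, by stage; black points are untreated ES or DMSO libraries with a line at their mean, orange squares 10 nM and red triangles 100 nM TBBPA. The share is highest at day 4 (9.99% and 9.48% in DMSO) and lowest at day 28 (5.74% and 5.78%), and at day 12 both TBBPA libraries (7.84% and 7.75%) lie above both DMSO libraries.

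From ES to day 4 in DMSO, 31 of 84 members rose and 4 fell by edgeR's quasi-likelihood test at an adjusted p under 0.05, where 31.9% of all 16203 tested genes rose and 30.3% fell. The median over the members was 0.14 on the log2 scale, against 0.00 over all genes. The 4 that fell were all paralogs: Rpl10l, Rpl39l, Rpl3l and Rpl7l1. Of the small subunit 11 of 31 rose, of the large subunit 19 of 43, and of the stalk 0 of 3.

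Rps27, a zinc finger protein of the small subunit, was at 493 and 603 CPM in ES and at 820 and 803 CPM at day 4. Both day 4 libraries lay above both ES libraries, and the rise was 0.57 ± 0.09 (SE; adjusted p = 9.35e-05). Rps19, a small subunit protein known for its mutation in Diamond-Blackfan anaemia, was at 775 and 953 CPM in ES and at 1130 and 1232 CPM at day 4, a rise of 0.45 ± 0.08 (SE; adjusted p = 0.000247). The count of this step rests on the ES libraries: without ES replicate 1, 21 members rose and 11 fell, and without ES replicate 2, 54 rose and 5 fell. Fitting the 4 libraries alone gave 11 and 4.

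From day 4 to day 9, 81 of 84 members fell and 0 rose, where 28.9% of all tested genes fell. The median over the members was -0.57, with a range from -1.22 to -0.16, against 0.01 over all genes. All 31 small subunit, all 43 large subunit and all 3 stalk members fell. The 3 members that did not pass were paralogs: Rpl39l (-0.63 ± 0.49, SE), Rpl3l (-0.29 ± 0.35) and Rpl22l1 (-0.16 ± 0.11). Leaving out each library in turn gave 79 to 81 members that passed.

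Rps2, the member with the most counts, whose protein lies at the mRNA entry of the small subunit, was at 4332 and 4004 CPM at day 4 and at 2565 and 2673 CPM at day 9. The groups did not overlap, and the fall was -0.67 ± 0.06 (SE; adjusted p = 4.98e-07). Rpl4, a large subunit protein lining the exit tunnel, went from 3716 and 3621 to 2289 and 2240 CPM (-0.70 ± 0.07, SE; adjusted p = 4.79e-07). Rpl3, a large subunit protein near the peptidyl transferase centre, went from 3564 and 3258 to 2163 and 2120 CPM (-0.67 ± 0.08, SE; adjusted p = 8.35e-06).
Rpl36, of the large subunit, had the largest fall among the core members, from 539 and 523 CPM to 249 and 250 CPM (-1.09 ± 0.12, SE; adjusted p = 8.84e-06). Rps27 gave back its earlier rise, from 820 and 803 to 456 and 454 CPM (-0.84 ± 0.09, SE; adjusted p = 3.12e-06). Rps14, of the small subunit, changed least among the core members that fell, by -0.27 ± 0.09 (SE; adjusted p = 0.0168), and did not pass without day 4 DMSO replicate 1 or without either day 9 library.

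The later control steps were smaller. From day 9 to day 12, 12 of 84 members fell and 0 rose, where 15.6% of all genes fell, and the members' median was -0.09 against 0.00 over all genes. From day 12 to day 18, 35 fell and 0 rose, where 17.1% of all genes fell, with a median of -0.18 against 0.00. From day 18 to day 28, 37 fell and 1 rose, where 28.1% of all genes fell, with a median of -0.19 against -0.03.
The members that passed were not the same in every step, and differences between steps were not tested. Rplp0, the stalk base, fell from 1957 and 1948 CPM at day 9 to 1624 and 1548 CPM at day 12 (-0.29 ± 0.08, SE; adjusted p = 0.0104). Rps12, of the small subunit, fell from 994 and 920 to 736 and 728 CPM over the same days (-0.37 ± 0.07, SE; adjusted p = 0.00113). Neither gene's groups overlapped, and Rplp0 did not pass without either day 9 library or without the second day 12 library.
Rps2 fell again from day 12 to day 18, from 2244 and 2115 to 1732 and 1683 CPM (-0.35 ± 0.06, SE; adjusted p = 0.000621). Rpl38, a large subunit protein known for its part in Hox mRNA translation in the mouse embryo, fell from day 18 to day 28, from 298 and 264 to 214 and 214 CPM (-0.40 ± 0.07, SE; adjusted p = 0.000242). Rpl36a, of the large subunit, fell from 460 and 464 to 352 and 344 CPM (-0.41 ± 0.08, SE; adjusted p = 0.000393), and Rpl23a, which sits by the exit of the tunnel, from 1499 and 1192 to 1005 and 945 CPM (-0.47 ± 0.11, SE; adjusted p = 0.00396).

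Rpl34 was the member that rose from day 18 to day 28, by 0.78 ± 0.13 (SE; adjusted p = 0.000294), after a fall of -0.60 ± 0.13 (SE; adjusted p = 0.00307) from day 12 to day 18. It was listed at 60.3 and 53.8 CPM at day 12, 32.2 and 42.7 at day 18 and 62.4 and 66.2 at day 28. Most of its family's counts lay on Rpl34-ps1, and with the copies added the last step was -0.07 and the step before it -0.06, neither of which passed. The fall of Rps6 from day 12 to day 18 (-0.36 ± 0.11, SE; adjusted p = 0.0207) was -0.13 with its copy added and did not pass either, nor did it pass without the first library of either day.
How many members passed in these steps moved with the libraries in the fit. Without the ES libraries the counts were 29, 58 and 49 members that passed for days 9 to 12, 12 to 18 and 18 to 28, where 49.8%, 54% and 66.6% of all genes passed in either direction. Leaving out each compared library in turn gave 3 to 4, 11 to 24 and 20 to 34.

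Over the whole control series, from ES to day 28 in DMSO, 82 of 84 members were lower and 0 higher, where 38.2% of all genes were lower. The median over the members was -0.84 and over all genes 0.13. The 2 that did not pass were Rps14 (-0.19 ± 0.09, SE; adjusted p = 0.0545) and Rpl34 (0.12 ± 0.13, SE; adjusted p = 0.384). With its copies added, Rpl34 was lower by -0.41 (adjusted p = 0.000186), and 83 members passed. With library size in place of TMM the members' median was -0.55 and that of all genes 0.43. A change of scaling moves all genes alike, so the distance between these medians is no check on the fall. With library size alone 75 members were lower and 1 was higher.

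The small subunit had a median of -0.79 and the large subunit of -0.86. Rps2 was at 4182 and 4575 CPM in ES and at 1633 and 1637 CPM at day 28, the largest fall of the small subunit at 2.65-fold (-1.41 ± 0.06, SE; adjusted p = 4.48e-11). Rpl12, a large subunit protein at the base of the stalk, fell 2.64-fold (-1.40 ± 0.08, SE; adjusted p = 9.5e-10). Rps19 and Rps27 were lower by -0.20 ± 0.08 and -0.28 ± 0.09 (SE), the smallest falls that passed. With library size alone their sign turned, to 0.10 and 0.02, and neither passed without ES replicate 2 or without day 28 DMSO replicate 1, nor Rps19 without day 28 DMSO replicate 2.
The stalk proteins recruit elongation factors to the ribosome. Rplp0 was at 2389 and 2905 CPM in ES and at 1344 and 1423 CPM at day 28, Rplp1 at 1586 and 1821 and then 812 and 852, and Rplp2 at 972 and 991 and then 530 and 552. None of these groups overlapped, and the changes were -0.92 ± 0.08, -1.02 ± 0.08 and -0.85 ± 0.06 (SE; adjusted p at most 4.5e-08). Rpl5 and Rpl11, which bind 5S ribosomal RNA and, when free of the ribosome, Mdm2, went from 2089 and 2261 to 996 and 1040 CPM and from 1011 and 1141 to 654 and 629 CPM. Their changes were -1.08 ± 0.06 and -0.73 ± 0.07 (SE; adjusted p = 6.8e-10 and 1.3e-07).

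**Figure D3:**
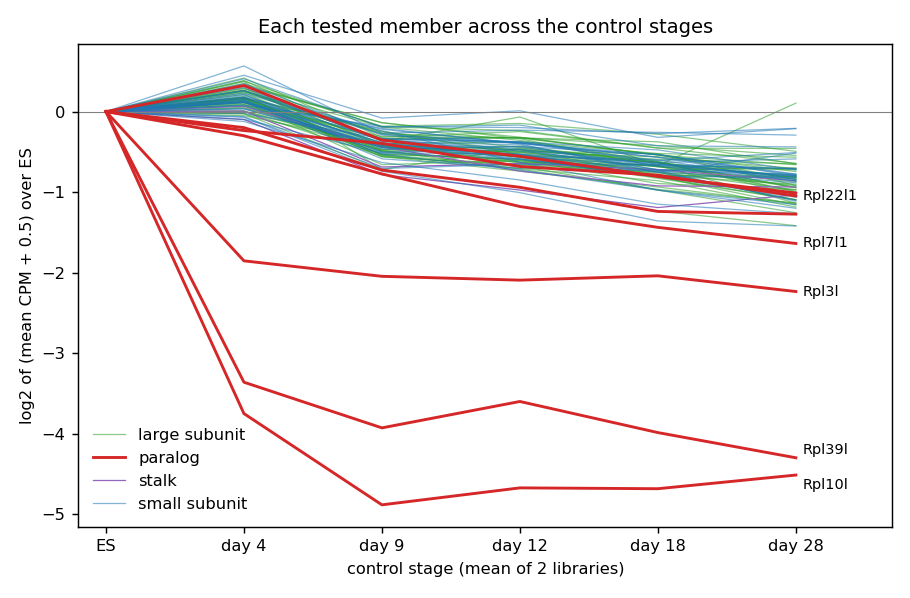
Mean level of each of the 84 tested members at 6 control stages (ES, then DMSO at days 4, 9, 12, 18 and 28; n = 2 libraries each), as log2 of (CPM + 0.5) over the ES mean; blue lines are small subunit, green large subunit, purple stalk and red paralogs. Most lines end between -0.2 and -1.4, while Rpl10l, Rpl39l and Rpl3l drop at day 4 and stay low.

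Paralogs of core members gave the widest changes. Rpl10l is an autosomal retrogene of the X-linked Rpl10, which encodes a protein that joins the large subunit late, and Rpl10l is known for standing in for it in male meiosis. Rpl10l was at 158 and 118 CPM in ES, at 10.4 and 9.2 CPM in the day 4 DMSO libraries and between 4.04 and 6.37 CPM in the 8 later DMSO libraries. The ES libraries lay far above all others, and the fall from ES to day 4 was 14.1-fold (-3.82 ± 0.15, SE; adjusted p = 1.62e-10), followed by a fall of -1.22 ± 0.20 (SE; adjusted p = 0.00018) to day 9.
Rpl10 itself was at 1182 and 1392 CPM in ES and at 1366 and 1221 CPM at day 4, groups that overlapped (0.01 ± 0.11, SE; adjusted p = 0.987). Per count, Rpl10l was at 10.9% ± 3.43 (SD, n = 2) of Rpl10 in ES and at 0.756% ± 0.00322 (SD, n = 2) at day 4. With FPKM in place of counts these were 7.71% ± 2.43 and 0.535% ± 0.00214.

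Rpl39l, the autosomal counterpart of the X-linked Rpl39, whose protein lies in the exit tunnel, is best known from male germ cells. It was at 87.5 and 38.5 CPM in ES, at 6.03 and 5.35 CPM at day 4 and between 2.53 and 5.7 CPM in the 8 later DMSO libraries. The ES libraries differed from each other, and both lay above all 20 others. The fall to day 4 was 11.1-fold (-3.47 ± 0.39, SE; adjusted p = 5.82e-05), while Rpl39 went from 442 and 539 to 612 and 564 CPM (0.26 ± 0.08, SE; adjusted p = 0.0145), a rise that did not pass without day 4 DMSO replicate 1.
Rpl3l, the paralog of Rpl3 known from striated muscle, was low throughout, at 4.98 and 5.20 CPM in ES (81.2 and 85.6 estimated counts) and 0.734 and 1.36 CPM at day 4. Its fall was 4.82-fold (-2.27 ± 0.27, SE; adjusted p = 5.47e-06), and at day 28 it was at 0.55 and 0.828 CPM. The 8 skeletal muscle markers summed to 3.25 and 3.26 CPM in ES and to 201 and 216 CPM in the day 28 DMSO libraries, so Rpl3l was highest where these markers were lowest. Myl1 and Myod1 were at 0 in ES.

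The other 4 paralogs fell more gradually. Rpl7l1, named after the large subunit protein Rpl7, was at 340 and 298 CPM in ES, 263 and 256 at day 4, 188 and 184 at day 9, 142 and 140 at day 12, 118 and 118 at day 18 and 102 and 102 at day 28. No 2 neighbouring stages overlapped, and the net fall was 3.09-fold (-1.63 ± 0.06, SE; adjusted p = 8e-12), against 1.73-fold for Rpl7. As a share of Rpl7 counts it went from 22.6% ± 2.51 (SD, n = 2) in ES to 12.7% ± 0.112 (SD, n = 2) at day 28.
Rps27l, a paralog of Rps27 and a known p53 target, was at 183 and 176 CPM in ES, 234 and 215 at day 4 and 85.8 and 91.8 at day 28. It was the paralog that rose in the first step, by 0.32 ± 0.07 (SE; adjusted p = 0.00151). Its net change was -1 ± 0.08 (SE; adjusted p = 1.26e-08), and its share of Rps27 counts went from 33.2% ± 5.6 to 19.9% ± 0.0195 (SD, n = 2).
Rpl22l1, whose own transcript is a target of Rpl22, and Rpl36al fell 2.05-fold and 2.4-fold from ES to day 28, against 1.78-fold for Rpl22 and 2.02-fold for Rpl36a. Their shares of the partner's counts were 20.6% ± 0.168 and 41.7% ± 12.5 in ES and 17.8% ± 0.246 and 34.5% ± 1.36 at day 28 (SD, n = 2), with no steady course between. Differences between paralog and partner were not tested as such.

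**Figure D4:**
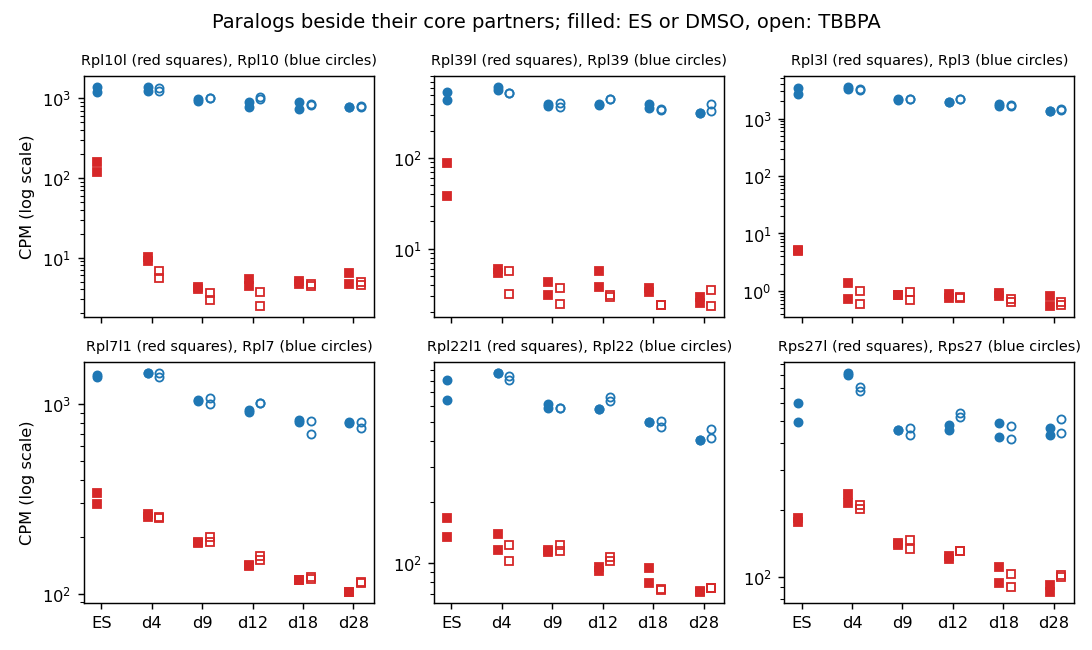
CPM on a log scale of 6 paralogs (red squares) and their core partners (blue circles) at each stage; filled symbols are ES or DMSO libraries, open symbols the 10 nM and 100 nM TBBPA libraries. Rpl10l falls from 158 and 118 CPM in ES to 10.4 and 9.2 at day 4 while Rpl10 stays near its ES level, and Rpl7l1 falls stage by stage.

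Some members changed in proportion to the others. Library sizes were set to the members' summed counts, so a change is relative to the other members and rises are offset by falls. From ES to day 28, 43 of 84 changed, 22 up and 21 down, where 84.1% of all genes passed that fit. From ES to day 4, 25 changed, 13 up and 12 down, where 60.2% of all genes passed. Both comparisons rest on the ES pair, whose libraries stood further apart on the members than any DMSO pair.
Relative to the rest, Rps19 rose by 0.70 ± 0.08, Rps14 by 0.70 ± 0.06, Rps27 by 0.62 ± 0.07 and Rps15 by 0.47 ± 0.07 (SE; adjusted p at most 1.7e-05). All 4 encode small subunit proteins. The core members with the largest relative falls were Rps2 (-0.52 ± 0.05), Rpl12 (-0.51 ± 0.06), Rps20 (-0.36 ± 0.07) and Rpl14 (-0.35 ± 0.07; SE; adjusted p at most 0.000293). Rpl34 stood highest at 1.01 ± 0.13 (SE), a value that its copies make uncertain. Among the 77 core members, the SD of the change from ES to day 28 was 0.27 on the log2 scale, and its Spearman correlation with transcript length was -0.19, a description over genes that share the same libraries.

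Genes with related roles moved as follows between ES and day 28, where 38.2% of all tested genes fell and 83.1% passed in either direction. Fau and Rack1, which encode ribosomal proteins outside the symbol rule, fell by -0.45 ± 0.07 and -0.91 ± 0.07 (SE; adjusted p = 1.86e-05 and 9.72e-09). Of 18 translation factors and other genes with TOP mRNAs, 16 fell and 2 rose, with a median of -0.94, among them Npm1 (-2.23 ± 0.07, SE), a nucleolar chaperone. Eef1a1, the elongation factor that brings aminoacyl-tRNA, fell from 16049 ± 1922 to 9389 ± 188 CPM (SD, n = 2).
All 39 measured genes of RNA polymerase I and ribosome assembly fell, with a median of -1.69, where 38.2% of all genes fell. They included Dkc1 (-3.23 ± 0.08, SE), a pseudouridine synthase, and Fbl (-2.05 ± 0.06, SE), the rRNA methyltransferase fibrillarin. All 16 genes of S phase and mitosis fell, with a median of -2.39. Of 77 mitochondrial ribosomal protein genes, 69 fell and 4 rose, with a median of -0.82, close to the members' -0.84.
Mycn and Myc, transcription factors known to drive ribosome production, went opposite ways. Mycn went from 117 ± 26.1 to 46.2 ± 2.31 CPM (-1.33 ± 0.13, SE), and Myc from 1.71 ± 1.05 to 18.7 ± 0.536 CPM (3.46 ± 0.21, SE), with its highest control mean of 42.0 ± 0.677 CPM at day 9 (SD, n = 2). Of 12 p53 targets, 6 rose and 4 fell, where 83.1% of all genes passed in either direction. The part of cell cycle, cell mixture or these regulators in the fall of the members was not tested.

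TBBPA was compared with DMSO within each day, taking the 10 nM and 100 nM libraries together, so that each day sets 2 libraries against 2. By the test, 1 of 84 members changed at day 4, where 0.458% of 16383 genes did, 0 at day 9 (2.34% of genes), 18 rose and 1 fell at day 12 (11.9% of genes rose), 0 at day 18 (10.5% of genes) and 0 at day 28 (7.09% of genes). At days 9, 18 and 28, edgeR gave 0, 3 and 16 members with an unadjusted p under 0.05, and DESeq2 and limma on FPKM also called 0 members. The medians over the members were -0.09, -0.02, 0.18, 0.01 and 0.10 from day 4 to day 28, against 0.00, 0.00, 0.03, 0.02 and 0.01 over all genes.

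**Figure D5:**
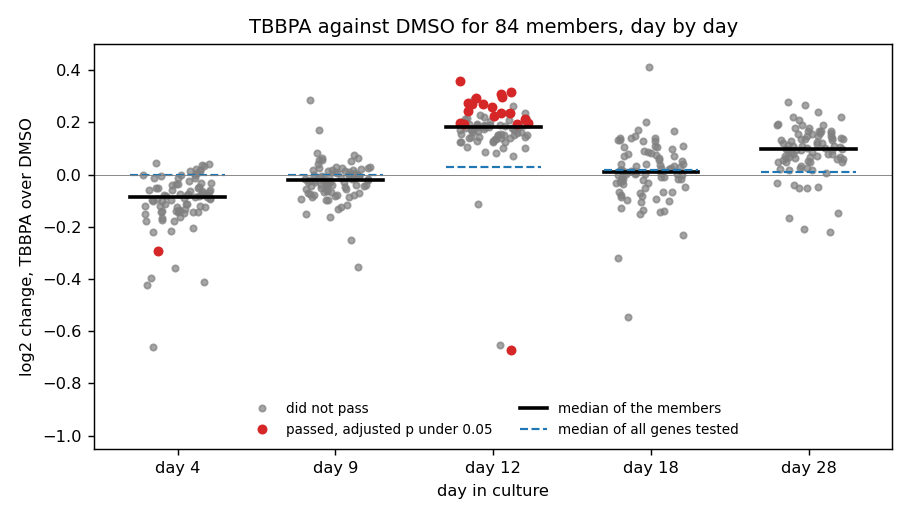
Log2 change of each of the 84 tested members, TBBPA over DMSO, by day (2 TBBPA libraries of different dose against 2 DMSO libraries); red points passed the test, the black line is the members' median and the dashed blue line the median of all genes tested. At day 12 all but 3 points, which are paralogs, lie above 0.

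At day 12 the members moved together. Both TBBPA libraries lay above both DMSO libraries in 80 of 84 members, where 37.5% of all genes did so, and below both in 2, where 28.3% did. The members are read from the same 4 libraries, so they are not separate observations. The members' share of counts was 7.84% at 10 nM and 7.75% at 100 nM, against 7.07% and 6.95% in DMSO. All 77 core members had a positive change, and 18 of them passed, 6 of the small and 12 of the large subunit.
Rpl31, a large subunit protein at the tunnel exit, was at 549 and 521 CPM in DMSO and at 681 and 692 CPM in the 10 nM and 100 nM libraries. The rise was 0.36 ± 0.08 (SE; adjusted p = 0.00207). Rpl37a, of the large subunit, was at 454 and 445 CPM in DMSO and at 550 and 563 CPM with TBBPA (0.31 ± 0.07, SE; adjusted p = 0.00219). Neither gene's groups overlapped, and both genes passed whichever of the 4 libraries was left out. With its copies added, Rpl31 rose by 0.32 (adjusted p = 0.0045).
Rpl30, of the large subunit, was at 322 and 299 CPM in DMSO and at 394 and 378 CPM with TBBPA (0.32 ± 0.09, SE; adjusted p = 0.0151), and did not pass without either TBBPA library or without the second DMSO library. Rpl11 was at 859 and 866 and then 1036 and 1046 CPM (0.27 ± 0.07, SE; adjusted p = 0.0121), and Rpl5 at 1475 and 1520 and then 1712 and 1710 CPM (0.19 ± 0.07, SE; adjusted p = 0.0474). For both partners in the 5S particle the groups did not overlap, and neither passed when any 1 of the 4 libraries was left out.
Rps14 (0.27 ± 0.08, SE; adjusted p = 0.0238) and Rps16 (0.25 ± 0.08; adjusted p = 0.0248) had the largest changes among the small subunit members that passed, and Rps14 did not pass without either TBBPA library or without the second DMSO library. Rps2 and Rpl4, among the members with most counts, were at 0.08 ± 0.06 and 0.07 ± 0.08 (SE) and did not pass. The stalk members were between 0.13 and 0.17, and 0 of 3 passed.

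Rpl10l was the member that fell at day 12, from 4.48 and 5.37 CPM in DMSO to 2.49 CPM at 10 nM and 3.70 CPM at 100 nM (-0.67 ± 0.22, SE; adjusted p = 0.0306). It did not pass without either DMSO library or without the 10 nM library. Rpl39l was at 5.7 and 3.79 CPM in DMSO and at 3.12 and 2.92 CPM with TBBPA, without overlap, and did not pass (-0.65 ± 0.43, SE; adjusted p = 0.319). The pluripotency markers summed to 1003 and 1034 CPM in DMSO and to 648 and 653 CPM with TBBPA at day 12. The fibroblast markers summed to 2139 and 2227 and then 1646 and 1378 CPM, the yolk sac and liver markers to 1188 and 1217 and then 646 and 570 CPM, and the neuron markers to 342 and 364 and then 677 and 715 CPM. Of each of these lists all 8 genes were measured and none was at 0 in a whole group. The part of this difference in cell mixture in the change of the members was not tested.

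The number of members called at day 12 varied with the fit. The 19 that passed in either direction stand beside 21.1% of all genes. The count was 17 with DESeq2 (18.3% of all genes), 10 with DESeq2's size factors in edgeR (20.1%), 58 with only the 4 libraries compared (35.1%), 38 without the ES libraries (28.6%) and 3 to 6 when 1 of the 4 libraries was left out. The members' median stayed between 0.15 and 0.19 in these fits. Relative to the members' own sum only Rpl10l passed, so proportions among the core members gave no call. Of the lists, 12 of 77 mitochondrial ribosomal protein genes rose and 0 fell at day 12 (median 0.15), as did 6 of 18 TOP mRNA genes (median 0.12), and 2 of 39 assembly genes rose and 1 fell (median 0.06). Of all genes, 11.9% rose at day 12. Fau was at 0.20 ± 0.08 and Rack1 at 0.14 ± 0.07 (SE), and neither passed (adjusted p = 0.0755 and 0.18).

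At day 4 the direction was the other way for most members. Both TBBPA libraries lay below both DMSO libraries in 44 of 84 members, where 22.9% of all genes did, and above both in 1, where 21.7% did. These members share the same 4 libraries. Their share of counts was 9.99% and 9.48% in DMSO, 9.28% at 10 nM and 9.05% at 100 nM for all members. Both TBBPA libraries lay below the lower DMSO library, each by less than the DMSO libraries differed from each other. Rps23, which lies at the decoding centre of the small subunit, was the member that passed: it was at 2113 and 1984 CPM in DMSO and at 1658 and 1688 CPM at 10 nM and 100 nM (-0.29 ± 0.07, SE; adjusted p = 0.0496). It did not pass when any 1 of the 4 libraries was left out. Rps6 (-0.41 ± 0.11, SE; adjusted p = 0.0988) and Rpl10l (-0.66 ± 0.18, SE; adjusted p = 0.129) came next by p and did not pass. Rpl10l was at 10.4 and 9.2 CPM in DMSO and at 6.72 and 5.64 CPM with TBBPA. The pluripotency markers summed to 2737 and 2787 CPM in DMSO and to 2367 and 2360 CPM with TBBPA at day 4, and the skeletal muscle markers to 81.1 and 90.6 and then 67.6 and 68.3 CPM, with Myod1 at 0 in all 4 libraries. Their part in the members' values was not tested.
At day 9 both TBBPA libraries lay above both DMSO libraries in 7 members (23.9% of all genes) and below both in 15 (23.5%). At day 18 the counts were 19 above (31.3%) and 5 below (23.9%), and at day 28 they were 34 above (28.9%) and 0 below (25.1%). The member of smallest p was Rpl28 at day 9 (-0.13 ± 0.07, SE; adjusted p = 0.442), Rpl34 at day 18 (0.41 ± 0.15; adjusted p = 0.106) and Rpl38 at day 28 (0.28 ± 0.10; adjusted p = 0.088).

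At day 28 the 10 nM and 100 nM libraries, 1 each, lay apart. The members' share of counts was 5.65% at 10 nM and 6.37% at 100 nM, with DMSO at 5.74% and 5.78%. The 100 nM library lay above both DMSO libraries. The 10 nM library was below both by share of counts and between them by summed CPM (52634, against 52081 and 53160 in DMSO). The median change over the members was 0.01 at 10 nM and 0.18 at 100 nM, against 0.01 and 0.00 over all genes. Rpl38 was at 214 and 214 CPM in DMSO, 232 CPM at 10 nM and 287 CPM at 100 nM. Rpl36a was at 352 and 344 CPM in DMSO, 372 at 10 nM and 464 at 100 nM. With the 100 nM library alone against DMSO, 8 of 84 members passed, all higher, where 7.85% of all genes passed, and with the 10 nM library alone 0 did (2.55% of all genes; 2 members at an unadjusted p under 0.05 in edgeR). With both doses in 1 group, 11 of 16 S phase and mitosis genes rose at day 28, with a median of 0.22, where 7.09% of all genes passed in either direction. At day 28 the skeletal muscle markers summed to 201 and 216 CPM in DMSO, 122 CPM at 10 nM and 66.8 CPM at 100 nM. The pluripotency markers summed to 577 CPM in both DMSO libraries and to 598 and 672 CPM, and the fibroblast markers to 14486 and 15069 and then 9521 and 10259 CPM. The part of these marker differences in the members' values was not tested.
Over the 5 days the 100 nM library was above the 10 nM library in 34, 66, 30, 79 and 79 of 84 members, in order of day, where 50.3%, 49.9%, 50.9%, 45.1% and 47.8% of all tested genes were. In the fit of dose over the days, 0 of 84 members passed, and 0% of all genes did. The members' median for 100 nM over 10 nM was 0.07, and 19 members had an unadjusted p under 0.05 in edgeR, while DESeq2 and limma called 0. Rpl21 (0.18 ± 0.05, SE; adjusted p = 0.428), Rps28 (0.20 ± 0.06; adjusted p = 0.473) and Rps12 (0.14 ± 0.05; adjusted p = 0.523) had the smallest p. Each dose is 1 library per day, and both doses share the DMSO libraries.

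Taking all days together, 2 of 84 members passed for TBBPA against DMSO, where 22.1% of all 16059 genes did. Rpl10l was lower (-0.40 ± 0.10, SE; adjusted p = 0.00554), with day by day values of 10.4 and 9.2 against 6.72 and 5.64 CPM at day 4, 4.04 and 4.34 against 2.95 and 3.60 at day 9, 4.48 and 5.37 against 2.49 and 3.70 at day 12, 5.06 and 4.71 against 4.40 and 4.73 at day 18, and 4.75 and 6.37 against 4.58 and 4.95 at day 28. It was lower in both TBBPA libraries at days 4, 9 and 12, and overlapped at days 18 and 28. With the 100 nM libraries alone it was at -0.34 and did not pass, nor did it without the day term (-0.42). Rpl18, of the large subunit, was higher by 0.11 ± 0.04 (SE; adjusted p = 0.036), a call that library size, FPKM and the summed DMSO pairs did not give. Nor did it hold without either day 12 DMSO library, the day 12 10 nM library, any 1 of the 4 day 18 libraries, day 28 DMSO replicate 1 or the day 28 100 nM library.
The effect of TBBPA differed between the days for 5 of 84 members, where 10.4% of all genes passed this test: Rps23, Rpl30, Rpl37a, Rpl31 and Rpl28. With copies added, Rpl31 did not pass (adjusted p = 0.0521) and Rpl23 did (adjusted p = 0.0276). For Rps23 (adjusted p = 0.00704) the changes were -0.29 at day 4, 0.02 at day 9, 0.14 at day 12, -0.13 at day 18 and 0.17 at day 28. For Rpl30 (adjusted p = 0.0285) they were -0.20, 0.04, 0.32, -0.14 and 0.19. When 1 library was left out, between 1 and 17 members passed, and Rps23 was the one of the 5 that passed in every such fit.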

How the data were processed

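Gene tables held estimated counts and FPKM for each of 22 libraries, per the file headers. No source used here names the tool with which the authors counted. The submitters' processing notes name HISAT, Bowtie2 and GRCm38.p5. A gene absent from a library's table was set to 0. The deposited estimated counts, 18158583 to 18998141 per library, were rounded and tested with edgeR 4.0.16 (R 4.3.3): TMM, a filter of 10 counts in filterByExpr, quasi-likelihood tests, Benjamini-Hochberg adjustment over all genes tested and a threshold of 0.05. Control steps used 12 libraries (6 residual degrees of freedom), TBBPA by day all 22 (11) and TBBPA over the days 20 with a day term (13). DESeq2 1.42.0 and limma 3.58.1 on log2(FPKM + 1) of the deposited FPKM were alternatives. The steps were run on simulated data with the same fixed spread for every gene and changes placed on randomly drawn genes. Those data do not copy the wide ES pair or a joint shift of the members, so they do not check the calls under these conditions. Depth limits the lowest paralogs. Values marked SE were derived from the log2 change and the F statistic of the quasi-likelihood test, with the spread estimated over all groups of the fit. Values marked SD are over the 2 libraries of a group. Members and lists were chosen with earlier results of these data known. Named genes were the paralogs and partners, the 5 members with most counts, 7 chosen members, and in each comparison up to 3 rises and 3 falls that passed at a mean of 2 log2 CPM or more without overlap, or the 3 of smallest p; others were named after their values were seen, and some genes the rule names are not reported here. Replicate numbers did not pair libraries: over 15 pairs of control groups the correlation of deviations was -0.02 to 0.09.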

Additional observations from a re-analysis of the deposited data

Results flagged for a closer look

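For 5 members the effect of TBBPA differed between the days by a test of the difference itself (edgeR's quasi-likelihood test, adjusted p): Rps23 (0.00704), Rpl30 (0.0285), Rpl37a (0.0338), Rpl31 (0.0427) and Rpl28 (0.0472). These are 5 of 84 members, where 10.4% of all genes passed. With copies added, Rpl31 had an adjusted p of 0.0521 and Rpl23 one of 0.0276. At day 4 all 5 changes were negative, from -0.29 for Rps23 to -0.08 for Rpl37a, and at day 12 all 5 were positive, from 0.14 for Rps23 to 0.36 for Rpl31. These signs are not particular to the 5, which were picked for differing between days. Over all 84 members the median was -0.09 at day 4 and 0.18 at day 12. Relative to the members' summed counts 0 members passed this test in edgeR, with 3 at an unadjusted p under 0.05, while DESeq2 on the deposited counts called 9, where 12.6% of all genes passed.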

How the results depend on the processing

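Leaving out 1 compared library at a time gave 25 to 59 members that passed from ES to day 4, 79 to 81 from day 4 to day 9, 3 to 4 from day 9 to day 12, 11 to 24 from day 12 to day 18, 20 to 34 from day 18 to day 28 and 80 to 83 from ES to day 28. For TBBPA it gave 0 to 0 at days 4 and 9, 3 to 6 at day 12, 0 to 1 at day 18, 0 to 12 at day 28, 1 to 17 for the difference between days, 1 to 6 over the days and 0 to 0 for dose. Where this left 1 library in a group, it was assumed to vary like the others. Only the libraries compared gave 15 members from ES to day 4, 46 from day 9 to day 12, 61 from day 12 to day 18, 6 for TBBPA at day 4 and 58 at day 12. Without the ES libraries, an alternative chosen after seeing the data, the counts were 29 and 58 for days 9 to 12 and 12 to 18, and 2, 38 and 4 for TBBPA at days 4, 12 and 28 and 17 for the difference between days. Limma on log2(FPKM + 0.1) and log2(FPKM + 1) gave 4 and 6 from day 9 to day 12, 20 and 21 from day 12 to day 18, 2 and 0 for TBBPA at day 4, 8 and 9 at day 12, 1 and 2 between days and 1 and 1 over the days. Library size alone gave 7 from day 9 to day 12, 11 for TBBPA at day 12, 2 between days and 1 over the days. DESeq2's size factors gave 0 for TBBPA at day 4, 10 at day 12 and 2 between days, and DESeq2 itself 9 between days and 5 over the days. TMM on other genes and no filter gave 0 for TBBPA at day 4. The 10 nM library alone gave 0, 9 and 1 at days 4, 12 and 18 and 1 over the days, and the 100 nM library alone 0, 6 and 8 at days 4, 12 and 28 and 3, all higher, over the days. Over the days, DMSO pairs summed gave 1 and no day term 0. In edgeR at day 4, 10 members had an unadjusted p under 0.05.

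Scaled to the members' summed counts, 11, 6, 2, 17 and 43 members passed for days 4 to 9, 9 to 12, 12 to 18, 18 to 28 and ES to day 28, and 0, 1 and 0 for TBBPA at days 4 and 12 and between days, which by construction measures change against the other members. The log2 values that turned positive there were, from day 4 to day 9, Rpl7l1 0.102, Rpl7 0.0902, Rpl10 0.148, Rpl22 0.0385, Rpl36al 0.0521, Rpl36a 0.103, Rps4x 0.0234, Rpl13a 0.127, Rplp0 0.0735, Rpl5 0.124, Rpl11 0.127, Rpl38 0.0553, Rpl41 0.117, Rps19 0.0425, Rps12 0.0779, Rps6 0.254, Rps14 0.311, Rpl37a 0.0515, Rps25 0.0754, Rpl18 0.0445 and Rpl21 0.0657. From ES to day 28 they were Rpl7 0.0929, Rpl10 0.194, Rpl22 0.0688, Rpl39 0.261, Rps4x 0.11, Rps27 0.618, Rpl13a 0.0865, Rpl11 0.162, Rplp2 0.0422, Rpl41 0.181, Rps19 0.698, Rps6 0.374, Rpl28 0.115, Rpl31 0.254, Rpl37a 0.197, Rps10 0.2, Rpl18 0.0792 and Rps28 0.125, and from day 12 to day 18 Rpl7 0.0104. From ES to day 28, library size alone turned Rps27 to 0.0215 and Rps19 to 0.101, and limma at FPKM + 1 and + 0.1 to 0.0312 and 0.0312 and to 0.0986 and 0.0987. With copies added, Rpl34 from day 18 to day 28 was -0.0737. The share of summed FPKM was 22.7% in ES and 25.4%, 20.2%, 20.3%, 19.1% and 17.7% at the DMSO days, and the core members alone held 7.13% of counts at day 9 and 5.72% at day 28. The cause of these shifts was not tested. With a replicate block, 35, 81, 13, 36, 37 and 82 members passed in the control comparisons, in order. Replicate numbers did not pair libraries, and the TBBPA doses carry no shared number. Each group holds at most 2 libraries, and low counts limit Rpl3l and Rpl32l, the latter listed at 0 to 3.67 counts.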
